A study of Mus musculus with 8 samples.

Results

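The sites described here are the ASH2L binding sites on mouse chromosome 15, or on chromosome 10 between 100 and 130 Mb, whose centres lay more than 3 kb from every annotated transcription start site (TSS). Of the 6444 sites in the deposited list 2389 met the distance limit, and 382 of these lay in the 2 segments, with 246 on chromosome 15 and 136 in the chromosome 10 segment. The comparison set was the other 2007 distal sites, of which 1831 were on the other 17 autosomes and 95 on the rest of chromosome 10. The 2 segments were chosen because distal sites were dense there, so their density is given as a description and was not tested.

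The list came from ChIP-seq in iMEF cells, which are immortalized mouse embryo fibroblasts. All cells carried a lentiviral human ASH2L fused to FKBP12F36V, a tag through which the small molecule dTAG sends a protein to the proteasome, and had lost exon 4 of the endogenous Ash2l alleles by Cre-ER recombination. The 4 groups were ASH2L ChIP from untreated cells, ASH2L ChIP from cells given dTAG for 1 h, and the input DNA of each, with 2 libraries per group. According to the paper, the fusion also holds HA tags, and its binding sites were mapped with antibodies against HA. The study worked mainly with 1 clone, so the placement of sites may be that of this clone. The list pools the sites found in any library and gives positions only, without reads, heights or input coverage, so neither the effect of dTAG nor the spread between replicates could be computed, and more DNA copies of a segment and more binding per copy cannot be told apart. The fibroblast identity of the cells could likewise not be checked against marker genes.

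ASH2L is a core subunit of the KMT2 (COMPASS) complexes, which methylate lysine 4 of histone H3. Trimethylation of this residue is typical of active promoters, many of them in CpG islands, and monomethylation is typical of enhancers, which can lie far from the gene they act on. AP-1, a dimer of FOS and JUN proteins, is a major enhancer-binding factor of fibroblasts and recognizes the 7-base sequence TGACTCA or its variant TGAGTCA.

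The 200-bp centre windows of 4 sites per segment are shown because they are the widest members with an AP-1 match inside the window, 3 per segment, and the widest member without a match there. Wider members with a match outside the window, in Nsmce2, near Cpm and in Csrp2, are not shown. Letters are from the GRCm38 assembly, AP-1 matches are in capitals, and each window is named for its hosting or nearest protein-coding gene. The chromosome 15 windows were as follows, the last being without a match and lying in an intron of the noncoding gene Lncppara.
Trps1 site, chr15:50869486-50869685, plus strand: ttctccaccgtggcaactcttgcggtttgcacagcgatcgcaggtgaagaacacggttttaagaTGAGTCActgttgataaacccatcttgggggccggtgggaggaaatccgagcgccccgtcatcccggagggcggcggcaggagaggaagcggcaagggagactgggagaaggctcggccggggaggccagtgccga
Ccn4 site, chr15:66883740-66883939, plus strand: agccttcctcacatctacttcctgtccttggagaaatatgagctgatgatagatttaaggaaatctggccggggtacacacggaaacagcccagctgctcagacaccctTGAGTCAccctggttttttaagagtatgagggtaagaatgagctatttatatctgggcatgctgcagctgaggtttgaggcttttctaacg
Cdh12 site, chr15:20223694-20223893, plus strand: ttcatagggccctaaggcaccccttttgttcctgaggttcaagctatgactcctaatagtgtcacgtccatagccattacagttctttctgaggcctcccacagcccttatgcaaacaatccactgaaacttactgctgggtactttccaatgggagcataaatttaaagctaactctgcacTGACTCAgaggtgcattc
Ppara site, chr15:85672864-85673063, plus strand: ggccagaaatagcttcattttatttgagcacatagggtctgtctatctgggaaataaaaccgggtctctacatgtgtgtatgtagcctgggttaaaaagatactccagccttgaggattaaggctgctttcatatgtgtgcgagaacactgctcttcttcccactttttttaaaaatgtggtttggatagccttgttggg
The chromosome 10 windows followed the same rule, and again the last held no match.
Glipr1l3 site, chr10:112123790-112123989, plus strand: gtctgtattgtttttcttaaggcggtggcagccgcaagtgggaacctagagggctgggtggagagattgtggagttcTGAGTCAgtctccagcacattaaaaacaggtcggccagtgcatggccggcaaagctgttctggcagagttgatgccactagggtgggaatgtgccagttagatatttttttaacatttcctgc
Myrfl site, chr10:116740251-116740450, plus strand: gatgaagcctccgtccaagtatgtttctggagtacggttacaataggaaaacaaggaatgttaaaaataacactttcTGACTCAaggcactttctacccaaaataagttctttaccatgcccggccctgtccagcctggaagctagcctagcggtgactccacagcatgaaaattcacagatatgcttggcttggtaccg
Lgr5 site, chr10:115593356-115593555, plus strand: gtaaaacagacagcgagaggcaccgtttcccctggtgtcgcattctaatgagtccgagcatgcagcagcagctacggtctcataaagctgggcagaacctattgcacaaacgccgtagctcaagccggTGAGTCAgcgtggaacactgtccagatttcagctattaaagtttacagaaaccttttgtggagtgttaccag
Lrig3 site, chr10:125970530-125970729, plus strand: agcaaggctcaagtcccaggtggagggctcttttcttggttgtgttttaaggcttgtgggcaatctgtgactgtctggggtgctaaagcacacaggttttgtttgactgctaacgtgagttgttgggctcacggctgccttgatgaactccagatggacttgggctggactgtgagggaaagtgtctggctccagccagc
The Trps1 window lay in an intron and carried its match 33 bp before the centre of a site of 703 bp. The Ccn4 and Lgr5 windows were intergenic, 7.48 and 5.68 kb from the TSS of Ccn4, a secreted matrix-associated protein, and of Lgr5, a receptor for R-spondins that marks stem cells of several epithelia. The Cdh12 window was isolated, 225 kb from the TSS of this cadherin gene. Among the 51 members with a match in the window, 8 had more than 1, and the median distance of the nearest match from the centre was 32.5 bp.

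Density was first compared among 3 classes of site, defined by distance from the nearest TSS, because the rule used only the distal class. Chromosome 15 held 2.84 distal sites per Mb of distal sequence and the chromosome 10 segment 5.36, against 1.01 on the other 17 autosomes, where single chromosomes ranged from 0.791 on chromosome 12 to 1.28 on chromosome 13. The rest of chromosome 10 held 1.16 per Mb. These values gave ratios to the other autosomes of 2.82 and 5.32 for the 2 segments.

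Sites nearer to TSSs, which the rule did not use, were denser on both segments as well, with smaller ratios. For flanking sites, centred 1 to 3 kb from a TSS, the ratio was 1.75 on chromosome 15 (95% counting interval 1.27 to 2.42, 40 sites) and 2.64 in the chromosome 10 segment (1.69 to 4.13, 20 sites). For promoter sites, within 1 kb, it was 1.30 (1.11 to 1.53, 159 sites) and 1.62 (1.27 to 2.08, 64 sites). The rest of chromosome 10 had ratios of 0.962 (0.640 to 1.45) and 1.06 (0.895 to 1.26) for the same classes. Single chromosomes outside the segments reached values like those of chromosome 15 in these 2 classes, with 5.72 flanking sites per Mb on chromosome 3 against 4.72 on chromosome 15, and 28.7 promoter sites per Mb on chromosome 18 against 28.3. The chromosome 10 segment, with 7.12 flanking and 35.4 promoter sites per Mb, stood above each of the other 17 autosomes taken whole. These units are unlike, since the segment is a 30-Mb piece chosen for its dense distal sites. Pieces of this length from other chromosomes were not compared.

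**Figure D1:**
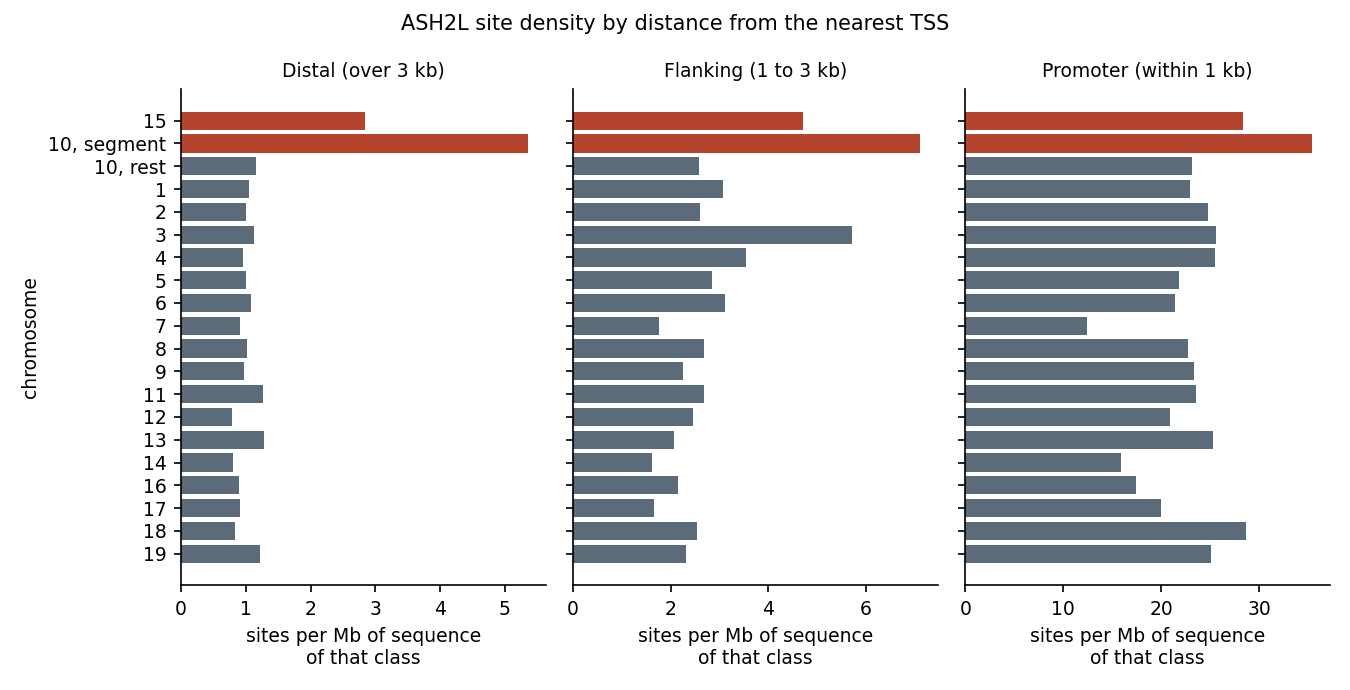
ASH2L sites per Mb of the sequence of each distance class (x axes) for chromosome 15, the chromosome 10 segment, the rest of chromosome 10 and the other 17 autosomes (y axis). Red bars mark the 2 segments, which lead the distal panel at 2.84 and 5.36 sites per Mb and stand less far from the other chromosomes in the flanking and promoter panels.

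Counted by gene, 142 of 785 protein-coding genes of chromosome 15 had a promoter site (18.1%), and 50 of 276 in the chromosome 10 segment (18.1%), against 14.5% on the other 17 autosomes, where single chromosomes ranged from 7.17 to 20.1%. The difference was 3.64 percentage points for chromosome 15 (95% Newcombe interval 1.05 to 6.53) and 3.66 points for the segment (-0.463 to 8.66). Among genes with a CpG island at the promoter the share was 21.7% on chromosome 15, 27.8% in the segment and 19.5% on the other 17 autosomes, where it ranged from 11.6% on chromosome 7 to 25.3% on chromosome 13. The difference for these genes was 2.17 points on chromosome 15 (-0.895 to 5.56) and 8.29 points in the segment (2.23 to 15.3). Thus each interval excluded 0 in 1 of the 2 segments only. Intervals here and in the following cover counting error only, since sites are not replicates, and were not adjusted for the number of comparisons.

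Along chromosome 10 the distal sites formed 1 long dense stretch, whose proximal limit was placed more closely than its distal limit. The likelihood of a model with 2 change points was highest for a stretch from 104.2 Mb (range within 2 log units 103.2 to 104.9) to 123.1 Mb (118.8 to 124 Mb), a length of 18.9 Mb. It held 121 of the 136 members, at 7.34 per Mb of distal sequence, against 1.16 per Mb before it and 1.97 per Mb after it. Neighbouring sites inside were a median of 101 kb apart and never more than 780 kb, whereas before the stretch the median gap was 480 kb. The outermost sites of the stretch were chr10:104275160-104275359, 200 bp wide, and chr10:123092369-123092731 near Mon2. GC content of the distal sequence was 40.6% inside and 40.9% before, and the stretch held 5.13 protein-coding genes per Mb against 7.25. The model places 2 change points on every chromosome, and long dense stretches were also found elsewhere. On chromosome 12 it enclosed 18.1 Mb with 30 distal sites, at 2.09 per Mb against 0.603 before. On chromosome 9 it enclosed 8 Mb, at 3.58 per Mb against 0.802. On chromosomes 1, 14 and 16 the enclosed stretch was sparse.

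The stretch of chromosome 10 was also read for sites near TSSs, which were not used to place its limits. Promoter sites were denser inside it than on the remainder of chromosome 10 by a ratio of 2.03 (1.44 to 2.85), with 42 inside, and flanking sites by 3.59 (1.92 to 6.70), with 15 inside. Of 85 genes with a CpG island in the stretch 27 had a promoter site (31.8%), against 138 of 696 outside it (19.8%), a difference of 11.9 points (2.48 to 22.8).

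On chromosome 15 the model, which can enclose only a single stretch, did not enclose a dense one. Whether dense stretches lie elsewhere on this chromosome was therefore not assessed. The 2 change points of chromosome 15 enclosed a sparse stretch from 13.4 Mb (12.9 to 13.9 Mb) to 24.4 Mb (21.4 to 25.8 Mb), with 7 distal sites over 11 Mb, or 0.666 per Mb. The proximal part before it held 40 sites at 4.40 per Mb, and the part after it 199 sites at 2.97 per Mb. The ranges were much wider when only sites wider than the minimum were used. The points were then 13.4 Mb (12.9 to 45.3 Mb) and 22.7 Mb (18.2 to 50.6 Mb). Bins were also weighted by their whole length instead of their distal sequence. The change points then moved to 4.1 Mb and 97.6 Mb (range of the latter 11.1 to 98.6 Mb), and the sparse stretch was not found. The first point lay just before the first member, at 4.107 Mb, and the second before the last member, at 103.555 Mb. This base also counted the start of the chromosome, where no distal sequence lies before 3 Mb. The sparse stretch is a gene desert with 5 protein-coding genes, Cdh9, Cdh10, Cdh12, Acot10 and Cdh18, of which 4 are cadherins, the calcium-dependent cell adhesion molecules. Its distal sequence had a GC content of 36.6%, against 42.0% after it. The widest gap on the chromosome lay elsewhere, at 4.52 Mb between 44.803 and 49.321 Mb, where 2 coding genes are annotated. A gap of 2.67 Mb between 78.137 and 80.806 Mb held 74 coding genes.

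**Figure D2:**
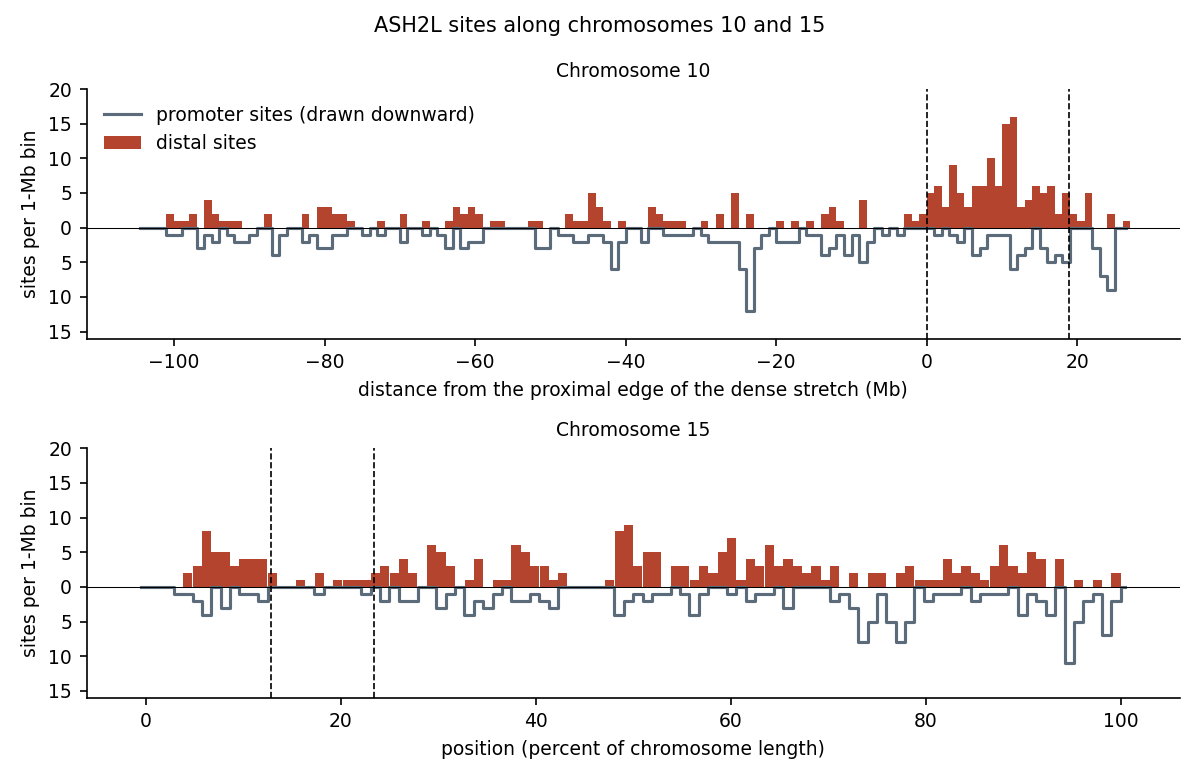
Distal sites per 1-Mb bin (red bars, upward) and promoter sites per 1-Mb bin (grey line, drawn downward) along chromosome 10, against the distance from the proximal edge of its dense stretch, and along chromosome 15, against percent of its length. Dashed lines are the fitted change points, which bound 18.9 Mb with 121 distal sites on chromosome 10 and a sparse stretch with 7 on chromosome 15.

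In fixed 1-Mb windows, 2.11% of all 2413 windows of the 19 autosomes held at least 5 distal sites. Chromosome 15 had 16 such windows of 101 and the chromosome 10 segment 13 of 30, against 21 of 2184 on the other 17 autosomes and 1 of 98 on the rest of chromosome 10. Because the rule rests on the same density, nothing is read from the excess. The fullest windows held 17 sites (115 to 116 Mb, around Lgr5 and Tspan8) and 14 sites (114 to 115 Mb, with Trhde its only coding gene) on chromosome 10, and 9 sites (51 to 52 Mb, with Eif3h, Utp23 and Rad21) on chromosome 15. Some of these windows had few or no promoter sites. The window from 107 to 108 Mb on chromosome 10, with 10 members around Myf5, Myf6, Ptprq and Otogl, held 0 promoter sites, and the window from 62 to 63 Mb on chromosome 15 held 7 members and no coding gene. Conversely, 20 windows of chromosome 15 (19.8%) and 4 of the segment (13.3%) had no distal site, against 48.6% on the other autosomes.

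At the limits of the rule, the members nearest to a TSS were 3044 and 3077 bp away, and the nearest sites that were left out 2985 and 2998 bp away. The last distal site before the chromosome 10 segment was at 96.188 Mb and the first member at 101.372 Mb. The last member was at 128.993 Mb and the next distal site at 130.289 Mb. The long gap from 125.972 to 128.755 Mb in the segment, 2.78 Mb with 87 coding genes, separated the last members from the Lrig3 group.

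By their medians members lay farther from genes than other distal sites did, and this was not tested. The median distance from the nearest protein-coding TSS was 59554.5 bp, against 28760 bp for the other distal sites, and from the nearest TSS of any kind 23915.5 bp against 15061 bp. More than 100 kb from every TSS lay 33 of 382 members (8.64%) and 98 of the other 2007 (4.88%). The share of distal sequence lying that far from a TSS is not given here, so gene spacing was not taken into account.

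In the gene bodies, 101 of 246 members on chromosome 15 lay within 63 protein-coding genes, 24 of which held 2 or more, and 28 others lay only within noncoding genes. In the chromosome 10 segment 52 of 136 lay within 28 coding genes, 13 of them with 2 or more, and 5 only within noncoding genes. The remaining 117 and 79 members lay in no annotated gene. Of the hosting genes 23 of 63 and 5 of 28 had a promoter site of their own. Among all coding genes the counts were 142 of 785 and 50 of 276, which is 18.1% in both segments. Hosting genes were not tested against these shares.

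Trps1, a GATA-type zinc-finger transcriptional repressor, hosted most members on chromosome 15, with 7 in 236 kb. Of the 7, 3 carried an AP-1 match and sat side by side at 10.9, 12.5 and 13.2 kb downstream of a TSS, within 2.76 kb of sequence that includes the Trps1 window printed above. Another 3 lay 124, 129 and 162 kb downstream, and the remaining one 3.08 kb upstream of the nearest TSS. Trps1 was also the nearest gene of a site 655 kb downstream and of one 375 kb upstream, and it had a promoter site.

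Ctnnd2, which encodes the adhesion protein delta-catenin, hosted 5 members in 857 kb, and 3 more lay just outside it, at 38.6 kb upstream and at 34.5 and 65.7 kb downstream of the nearest TSS. The 5 internal sites were narrow, from 200 to 267 bp, and spread along the gene, none had an AP-1 match in the window, and the promoter had no site. Adamts20, a secreted metalloprotease, hosted 4 members in 195 kb, 2 of them within 1.05 kb, and another member lay 20.9 kb upstream of its TSS. Kif21a, a kinesin motor, Fyb, an adaptor of immune receptor signalling, Asap1, an Arf GTPase-activating protein, Fam135b and Vps13b, a protein of membrane lipid transfer, hosted 3 each. The 3 in Fyb were confined to 10.1 kb of its 140 kb and the 3 in Fam135b were all 200 bp wide.

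In the chromosome 10 segment Trhde, the ectoenzyme that degrades thyrotropin-releasing hormone, hosted 7 members in 403 kb and was the nearest coding gene of 14. Seen from its TSS, 1 was 31.8 kb upstream, 7 lay inside the gene from 22.9 to 401 kb, and 6 followed beyond its end from 473 to 729 kb. The Trhde promoter had no site. Otogl, which encodes a protein of the inner ear, hosted 4 members in 152 kb. Lrig3, a leucine-rich repeat membrane protein, hosted 3 within 2.22 kb near its 5' end, among them the widest member of all at 1241 bp, centred 4.38 kb from the TSS. Lgr5, Ptprr, a receptor-type tyrosine phosphatase, Grip1, a synaptic scaffold protein, and Nav3, a microtubule-binding protein, hosted 3 each, and Osbpl8, an oxysterol-binding protein family member, hosted 2.

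Around Lgr5, the nearest coding gene of 6, the members lay on both sides of the 5' end. Inside the gene, 1 lay 6.69 kb downstream of one TSS and 1 lay 36.0 kb upstream of another, internal TSS, and 4 followed upstream of the gene at 5.68, 43.2, 61.6 and 96.4 kb. The one at 5.68 kb overlapped a CpG island and carried the AP-1 match printed above, and the Lgr5 promoter itself had no site. Within 100 kb of the gene body 8 members were counted. Atxn7l3b was the nearest coding gene of 8 members from 40.5 to 807 kb away, Kcnc2, a voltage-gated potassium channel, of 6, and Tmtc2, a protein of the endoplasmic reticulum, of 6.

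Myc, the proto-oncogenic transcription factor, was the nearest coding gene of 9 members on chromosome 15, the same number as Trps1, yet none lay within 100 kb of it. Upstream the sites were 114, 376, 377 and 452 kb from the TSS, and downstream 141, 347, 405, 561 and 672 kb. Of the downstream sites those at 141 and 347 kb were in introns of Pvt1, the long noncoding gene beside Myc. The site 452 kb upstream, chr15:61532818-61533134, carried the only AP-1 match of the 9, and Myc had no promoter site in the list. Eif3h, a translation initiation factor subunit, had 7 members from 3.35 to 169 kb, 2 of them in its introns. Khdrbs3, an RNA-binding protein, had 5 spread from 100 to 851 kb, and Fam135b and Adamts20 had 5 as well.

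**Figure D3:**
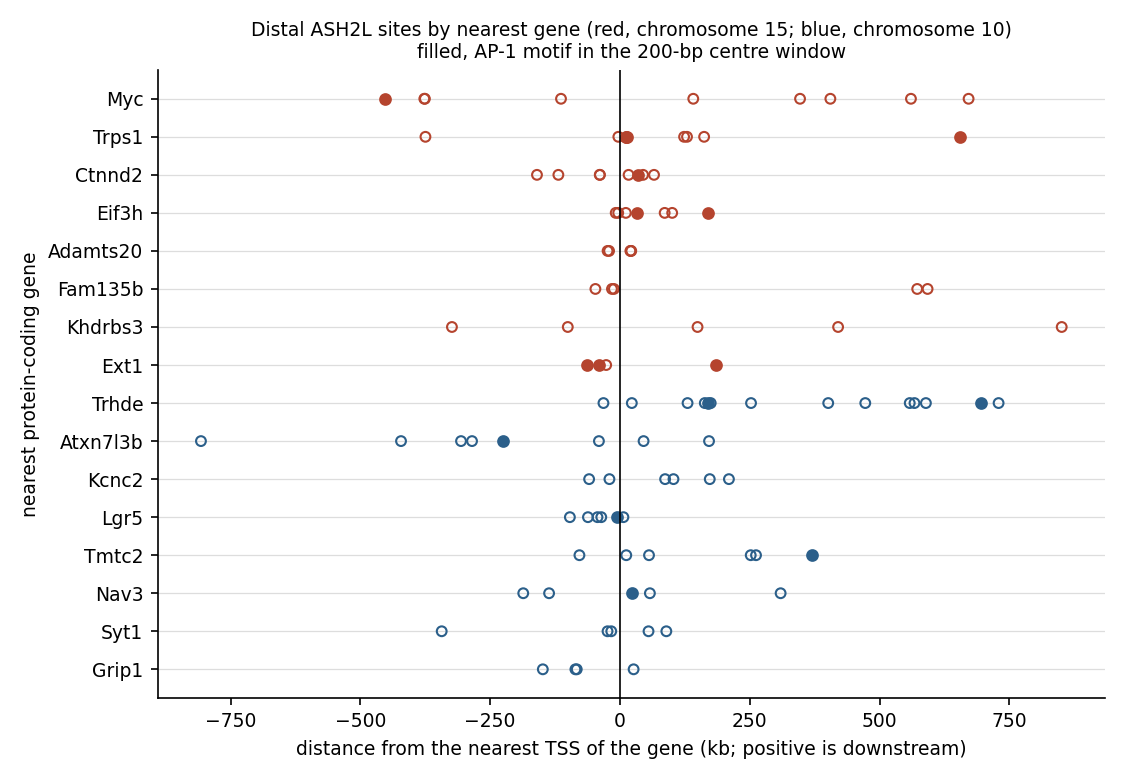
Distance in kb of each member from the nearest TSS of its nearest protein-coding gene (x axis, positive downstream), for the 8 genes per segment with most members (y axis). Filled points held an AP-1 match in the centre window, and the 9 sites assigned to Myc are all farther than 100 kb, whereas Trps1 has 3 filled points side by side from 10.9 to 13.2 kb.

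A set of 4 gene lists was read for members within 100 kb of the gene. The lists were chosen with earlier results of these data known. Their counts are therefore descriptions, and no excess over all coding genes is read from them. On chromosome 15, 194 of all 785 coding genes (24.7%) had a distal site within 100 kb, in the chromosome 10 segment 97 of 276 (35.1%), and on the other 17 autosomes 18.6%. Of 16 growth and signalling genes of chromosome 15, including the noncoding Pvt1, 10 had a member, with a median of 1 and at most 4, at Wnt7b, a WNT ligand. The other such genes included Ndrg1 with 3, the cytokine receptor genes Lifr with 2 and Osmr with 1, and Ptk2, the focal adhesion kinase, with 2. The 4 at Wnt7b were the sites in Lncppara whose nearest coding gene is Ppara. At Ndrg1, 2 of the 3 were nearest to Ccn4. A member within 100 kb of several genes was counted for each of them. Myc, Pdgfb, Rspo2, Rarg, Ep300 and Fbxo32 had 0.

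Of 18 genes in the list named matrix, adhesion and cytoskeleton on chromosome 15, 10 had a member, with a median of 1, and the highest counts were those of Ctnnd2 with 8 and Trps1 with 7. Trps1 and Zfpm2, which had 3, act in transcription rather than in what the list is named for. Ext1, a polymerase of heparan sulfate, had 3, whereas Col2a1, Fbln1, Itga5, Myh9 and Basp1 had 0. Of 19 growth and signalling genes in the chromosome 10 segment, 7 had a member, with a median of 0. Lgr5 had 8 and Phlda1 3, whereas the cell cycle and p53 pathway genes Cdk4 and Mdm2 had 0 distal members although both had a promoter site. Of 15 genes in the list named chromatin, matrix and cytoskeleton in the segment, 11 had a member, with a median of 2, and the highest counts were those of Trhde with 9 and of Grip1 and Syt1 with 4 each. Trhde, a peptidase, and Syt1, a calcium sensor of vesicle release, do not belong to what that list is named for. Nor do others that were counted, among them Lrig3 with 3 members and Msrb3 and Slc16a7 with 2 each. The 11 of 15 is therefore a count of listed genes and not of the named category. The median over all coding genes was 0 in both segments. Of the 4 genes of the lists with most members, Trhde, Ctnnd2, Lgr5 and Trps1 span 403, 857, 137 and 236 kb, whereas Cdh12, the longest listed gene at 1140 kb, had 0, and the part of length in the list counts was not tested.

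Some members stood close together. Joined at 10 kb, 33 members of chromosome 15 (13.4%) fell into 14 groups and 28 of the segment (20.6%) into 12, against 9.83% of distal sites on the other 17 autosomes. The largest group held 4 sites over 7.86 kb in introns of Lncppara, 62019 to 69401 bp from the TSS of Ppara, a nuclear receptor of fatty acid metabolism. Groups of 3 lay in Fyb and Trps1 on chromosome 15, and another group of 3 lay at Rictor, with 1 site in an intron of this gene and 2 intergenic sites. On chromosome 10 groups of 3 lay in Trhde and Lrig3, near Rab21 and Tmem19, and near Cpm, a membrane carboxypeptidase, where 2 sites measured 581 and 608 bp. Some entries nearly adjoin, as chr15:6703867-6704142 and chr15:6704144-6704359 at Rictor, and chr10:125969646-125969988 and chr10:125970010-125971250 in Lrig3. Each was counted as a separate member, and positions alone cannot tell whether such a pair is 1 bound region. Density was higher in both segments as well, and its part in the share in groups was not tested. The median gap between neighbours was 216 kb on chromosome 15, 110 kb in the segment and 672 kb on the other autosomes.

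Next, properties that the rule did not use were compared between the 382 members and the 2007 other distal sites, over 17 shares in all. Each share was also read for chromosome 15 and for the chromosome 10 segment alone, so the unadjusted intervals number more than 17. Width is given as a description beyond the share at the smallest value. The smallest width in the list, 200 bp, was that of 128 members (33.5%) and of 33.3% of the other distal sites, a difference of 0.224 points (-4.78 to 5.51), and the median width was 222 against 229 bp. The upper quartile was 278 against 345.5 bp, and the highest value 1241 against 4342 bp. The widest members on chromosome 15 were those in Trps1 (703 bp), Lncppara (628 bp), Slc1a3 (624 bp), Khdrbs3 (542 bp) and Nsmce2 (535 bp). In the segment, after the Lrig3 and Cpm sites, they were one in an intron of Csrp2, a LIM-domain protein (567 bp), and one near Glipr1l3 (544 bp).

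CpG islands overlapped 14 members (3.66%) and 7.87% of the other distal sites, a difference of -4.21 points (-6.14 to -1.57). On chromosome 15 the share was 2.85% (-5.03 points, -6.96 to -1.92) and in the segment 5.15% (-2.73 points, -5.64 to 2.49), and with distal sites taken beyond 10 kb the difference was -2.37 points (-4.34 to 0.459). GC content was 45.1% ± 3.76 (SD over 382 sites) for members and 45.4% ± 5.72 (SD, 2007 sites) for the others, above that of all distal sequence of the segments, at 41.3% on chromosome 15 and 40.2% on chromosome 10. Bases that the assembly marks as repeats by soft-masking made up a mean of 14.8% of a member and 22.4% of another distal site, against 33.9 and 33.8% of the distal sequence of the 2 segments. More than 50% soft-masked were 22 members (5.76%) and 13.4% of the others, a difference of -7.59 points (-10.1 to -4.45). The repeat difference was -7.26 points on chromosome 15 (-10.1 to -3.28) and -8.21 points in the segment (-11.3 to -2.92), and this measure was added after the data had been seen.

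Within genes, 178 members (46.6%) were centred in introns, against 48.7% of the other distal sites, a difference of -2.13 points (-7.54 to 3.33). Intergenic members were 51.3% against 46.7% (4.62 points, -0.835 to 10.1). The values of the 2 segments were unlike, in that 58.1% of members in the chromosome 10 segment were intergenic (11.4 points above the others, 2.72 to 19.7) and 47.6% on chromosome 15 (0.874 points, -5.66 to 7.47), and the difference between the segments was not tested. Distal sequence itself was 56.3% intergenic on chromosome 15 and 58.9% in the segment. Exons held 8 members (2.09%), against 4.58% (-2.49 points, -3.93 to -0.339), in Trhde, Ugt3a2, Spef2, Vps13b, Rad21 and 3 noncoding genes, and made up 2.47 and 2.31% of the distal sequence of chromosome 15 and of the segment. Rad21 encodes a cohesin subunit.

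The nearest coding gene of a member had a promoter site for 103 of 382 (27.0%), against 26.4% of the other distal sites, a difference of 0.556 points (-4.09 to 5.58). The 2 segments stood on opposite sides of the other sites. On chromosome 15 the share was 32.5%, higher by 6.11 points (0.226 to 12.5), and in the chromosome 10 segment 16.9%, with a difference of -9.50 points (-15.2 to -2.07), and the segments were not tested against each other. Many members share a nearest gene, with 246 members assigned to 130 genes and 136 to 57, so single genes such as Trhde, with 14 members, weigh heavily in these shares.

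AP-1 matches were found in the 200-bp centre windows of 51 members (13.4%) and of 227 other distal sites (11.3%), a difference of 2.04 points (-1.34 to 6.04). In all 200-bp tiles of the distal sequence of the 2 segments the share was 3.09%, and in promoter sites of the list 2.13%. By segment 36 of 246 windows on chromosome 15 (14.6%) and 15 of 136 on chromosome 10 (11.0%) had a match. Read over the whole site, 18.1% of members and 13.6% of the others had one, a difference of 4.46 points (0.594 to 8.87). TEAD letters (GGAATG) were in 19.1% of member windows, 17.9% of the others and 10.8% of tiles, with a difference of 1.17 points (-2.85 to 5.71).

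RUNX letters (TGTGGT) were in 15.2% of members and 19.98% of the others, a difference of -4.80 points (-8.52 to -0.505), with 13.5% of tiles. The share was 11.0% in the chromosome 10 segment (-8.95 points, -13.6 to -2.36) and 17.5% on chromosome 15 (-2.50 points, -7.11 to 3.002), and these 2 were not tested against each other. The remaining 6 motifs were rare. C/EBP letters (TTGCNCAA) were in 6 member windows, the E-box (CACGTG) in 9, SP/KLF (CCCCGCCCC) and CTCF in 1 each, and CRE (TGACGTCA) and ETS (CCGGAAGT) in 0. All were read on both strands, and each of these 6 differed from the other distal sites by less than 1 percentage point. A match describes letters in a window and is no evidence of a bound factor.

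**Figure D4:**
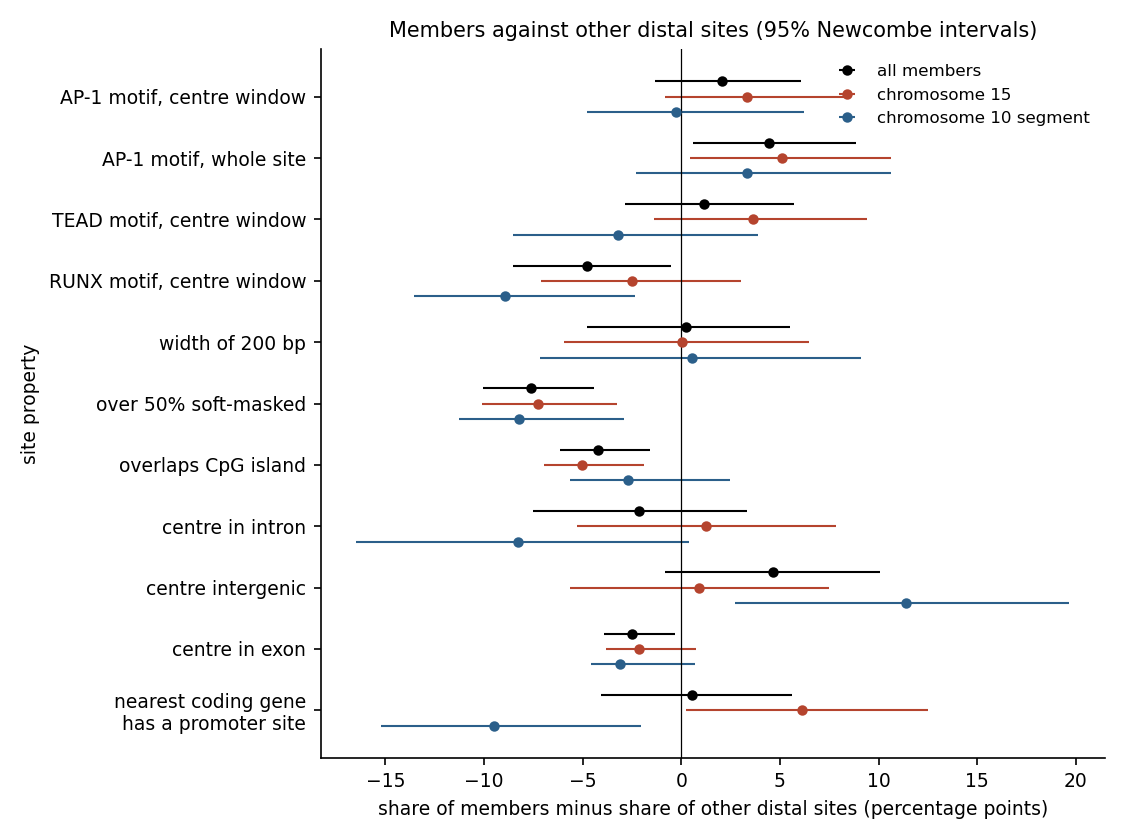
Share of members minus share of the 2007 other distal sites, in percentage points (x axis), for 11 properties (y axis), with 95% Newcombe intervals that cover counting error only. Black points are all 382 members, red points chromosome 15 and blue points the chromosome 10 segment. For all members the intervals for soft-masked bases, CpG islands, RUNX letters and exons lie below 0. That for AP-1 over the whole site lies above 0, and the others include 0.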

How the data were processed

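ASH2L ChIP-seq libraries and inputs (8 in all) were aligned and processed by the authors with BWA, SAMtools, MACS2, deepTools and DESeq2 (submitters' processing notes, versions not given in the sources used here). The deposited table gives positions of sites over all samples on mm10, starts counted from 0, with no counts, signal or score per sample and no depth. The planned dTAG comparison was therefore not made. Distances were taken from site centres to 132629 GENCODE vM21 TSSs, and sequence from GRCm38. CpG islands were 200-bp windows with GC over 50% and observed/expected CpG over 0.6. Edges were 2 change points of a Poisson likelihood over 100-kb bins. Ratios have Poisson, shares Wilson and differences Newcombe 95% intervals. The named genes were the 8 hosting and 5 nearest genes per segment, 4 gene lists, the 5 widest sites, the sites at the rule's limits and 4 sequences per segment. Members and lists were chosen with earlier results of these data known. The code ran on Python 3.11.15, with figures from matplotlib 3.10.9, tables from pandas 2.3.3, intervals from SciPy 1.17.1 and arrays from NumPy 2.4.6, and was tested on simulated data. Alternatives varied the distance limit, bins, merging, motif window and comparison set.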

Additional observations from a re-analysis of the deposited data

How the results depend on the processing

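No paired analysis was possible because the list holds no value per sample, and leaving out each replicate and the dTAG comparison were not run for the same reason. Of 83 alternatives over 17 results 63 gave the same sign with the interval on the same side of 0 or, for values without a test, moved by less than the spread, and the causes of the other changes were not tested. Sizes still varied among these, with intronic differences down to -8.29 points in the segment, a nearest-gene difference of 3.68 points with sites merged, and GC differences from -0.158 to -0.700 points, whose interval excluded 0 against the other 17 autosomes and in the segment alone. With distal sites taken beyond 10 kb the chromosome 15 density ratio was 3.30 and the CpG island difference -2.37 points. On chromosome 15 alone the intronic difference was 1.27 points and the nearest-gene difference 6.11 points. In the chromosome 10 segment alone the AP-1, CpG island and nearest-gene differences were -0.281, -2.73 and -9.50 points. Against the other 17 autosomes the nearest-gene difference was -0.453 points. Sites wider than the minimum gave an intronic difference of 1.55 points, sites merged within 1 kb a minimum-width difference of -0.424 points, and the whole site an AP-1 difference of 4.46 points. Genes with a CpG island gave promoter-site differences of 2.17 points on chromosome 15 and 8.29 points in the segment, where a 3-kb window gave 5.56 points. With bin length as the base the chromosome 15 edges were 4.1 and 97.6 Mb. Joining at 5 and 25 kb put 8.94 and 24.0% of chromosome 15 members and 12.5 and 35.3% of segment members into groups. The repeat share was added after seeing the data. No depth is known, so sites missed for low coverage could not be assessed.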
